A study of Canis lupus familiaris with 11 samples.

Results

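The RNA of 9 channel genes was followed in MDCKII cells, an epithelial line from dog kidney whose cells grow as a polarised sheet. The genes are PIEZO1, TRPV4, TRPA1, TRPM7, PKD1, PKD2, TMEM63A, TMEM63B and PANX1. They were taken by name from a table of 26178 gene rows, in which all 9 were found. TRPV4 was found through the protein match in the gene's description, because its name column holds no symbol. All 9 passed the filter on low counts, and the lowest count of any of them in any library was 209. The study compared wild-type (WT) cells with cells in which LMNA was knocked out (KO). LMNA encodes lamin A and lamin C, filament proteins under the nuclear envelope. Both genotypes were grown for 3 to 4 d to a confluent sheet. Controls were not compressed, and the other cultures were compressed laterally and left to recover for 2 h. There are 11 libraries, 3 each of WT control, WT compressed and KO compressed cells and 2 of KO control cells. The sources used here do not say how the compression was applied, whether controls had sham handling or a recovery period, or from how many clones the KO cells came. An effect of compression can therefore not be told apart from one of handling or of recovery time. Nothing says that replicates came from separate cultures, so p-values here measure the spread between samples that may be technical replicates.

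Cells sense stretch, crowding and swelling partly through ion channels in their membranes. PIEZO1 is a calcium-permeable channel opened directly by membrane tension. In epithelial sheets it is known for roles in both the extrusion of crowded cells and the division of stretched cells. TRPV4 is a calcium channel of the TRP family that responds to cell swelling, warmth and lipid products. TRPA1 responds to reactive chemicals, and TRPM7 joins a magnesium- and calcium-permeable pore to a kinase. Polycystin-1 (PKD1) and polycystin-2 (PKD2) form a receptor and channel complex on the primary cilium of kidney tubule cells, and mutations in either cause polycystic kidney disease. TMEM63A and TMEM63B belong to the OSCA/TMEM63 family of tension- and osmolarity-sensitive channels. PANX1 forms large pores that release ATP, a signal that passes between neighbouring cells.

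The libraries held 10420214 to 17999623 counts, and the labels held up at the targeted gene. LMNA stood at 679 to 1208 CPM (counts scaled by TMM to a common library size) in WT control libraries and at 751 to 841 CPM in WT compressed libraries. It stood at 25.5 to 51.8 CPM in the 5 KO libraries. Kidney epithelial markers summed to 1731 to 3059 FPKM (fragments per kilobase, scaled for depth) over all libraries. This sum rests mainly on the keratin genes KRT8 and KRT18, with means of 1441 and 537 FPKM. The others averaged 0.274 (CDH16) to 160 FPKM (EPCAM), with PAX8 at 30.1 and CLDN2 at 3.54. Of the 10, 1 was under 1 FPKM throughout, the tubule cadherin CDH16. Markers of fibroblasts, endothelium, immune cells and neurons were under 1 FPKM in all libraries for 7 of 8, 5 of 5, 4 of 5 and 4 of 4 genes. Libraries of a group were not equally alike. WT control 1 and KO compressed 2 stood farthest from the rest of their group within their genotype, with an SD of log2 differences over genes of 0.552 and 0.691, against 0.296 to 0.534 in the other 9. Libraries also differed by gene neighbourhood. Slopes were fitted to each library's log2 deviations from the gene's mean over the 11 libraries. Per doubling of the number of nearby genes, these deviations changed by 0.016 to 0.183 in WT control and -0.163 to -0.034 in WT compressed libraries. They changed by 0.044 to 0.066 in KO control and -0.197 to 0.04 in KO compressed libraries. Where leaving out both WT control 1 and KO compressed 2 changes a call of a channel gene, this is stated.

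TRPA1 was the most abundant of the 9 RNAs per length in each of the 4 groups. The levels that follow are the authors' FPKM, which allow genes to be compared. In WT control cells TRPA1 stood at 136 ± 9.53 FPKM (SD, n = 3), TRPV4 at 62.7 ± 4.67 and PIEZO1 at 43.1 ± 1.29, and the ranges of these 3 did not overlap. TMEM63B followed at 34.8 ± 6.21 FPKM and PANX1 at 29.2 ± 2.60, with the range of TMEM63B overlapping those of both PIEZO1 and PANX1. The others were lower by several fold. TMEM63A stood at 7.69 ± 0.792 FPKM and TRPM7 at 7.63 ± 0.967, so this pair did not differ beyond its spread. PKD2 stood at 4.72 ± 0.328 FPKM and PKD1 at 4.05 ± 1.1, again with overlapping ranges. In WT compressed cells TRPA1 at 171 ± 2.29 FPKM stood clear of the rest. TRPV4 at 34.1 ± 5.63, PANX1 at 29.7 ± 2.30, PIEZO1 at 23.9 ± 5.10 and TMEM63B at 21.5 ± 0.918 formed a chain of overlapping ranges. In KO control cells TRPA1 reached 281 ± 4.24 FPKM (n = 2), and in KO compressed cells 375 ± 59.0 (n = 3). It ranked 514 to 774 among the 26178 rows in WT libraries and 175 to 275 in KO libraries. PKD1 had the lowest mean of the 9 in all 4 groups.

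**Figure D1:**
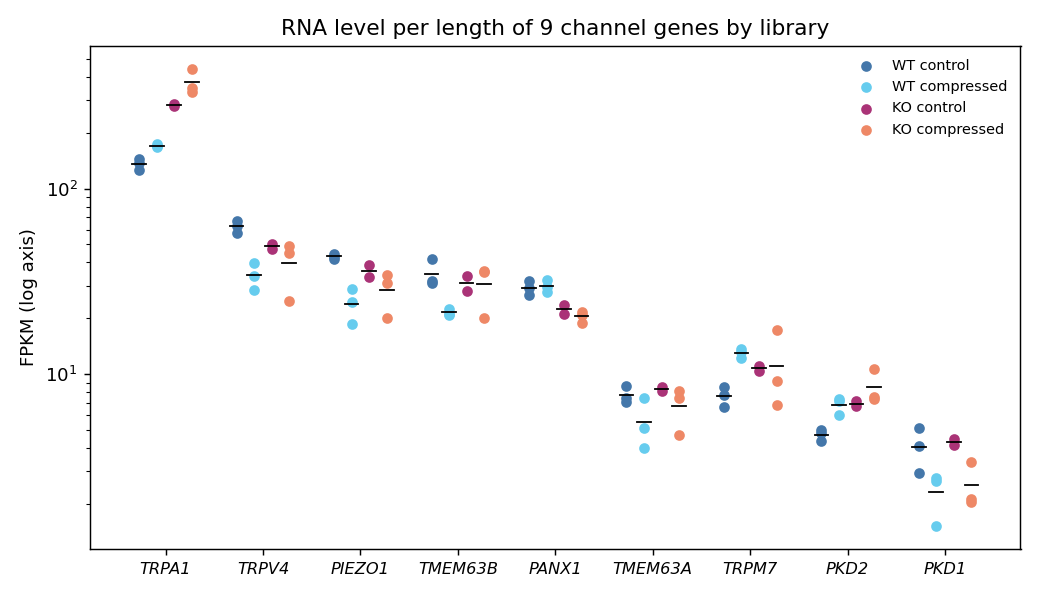
FPKM of the 9 channel genes in each library on a log axis, with a point per library, a colour per group and a black bar at each group mean. TRPA1 lies above the other 8 in all 11 libraries, from 126 to 443 FPKM, while PKD1 and PKD2 lie between 1.52 and 10.7 FPKM.

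Most of the related channels in lists chosen for comparison were at or near 0 in these cells. Of 22 other TRP channel genes in the table, 10 had enough counts to be tested, and TRPC4, TRPC5, TRPC6, TRPV5, TRPV6 and TRPM2 were among those with 0 counts in all 11 libraries. A count of 0 over all libraries allows a level of up to 0.0193 CPM (3 counts of the 155748390 in total), a limit that covers counting error only. MCOLN1, a lysosomal calcium channel, had the highest mean of this list at 9.92 FPKM, followed by TRPC1, a subunit of calcium entry channels, at 3.76 FPKM. Of 15 other mechanically gated channel genes 6 could be tested. TMC1 and TMC2 (the hair cell channels), KCNK2 and KCNK10 (tension-sensitive potassium channels) and ASIC2 had 0 counts throughout. PIEZO2, the touch channel of sensory neurons, had at most 2 counts in a library. The highest means of that list were those of TMEM120A, at 5.58 FPKM, and SCNN1A, the alpha subunit of the epithelial sodium channel, at 3.71 FPKM.

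PIEZO1 and TRPV4 fell in compressed WT cells, to 0.560 and 0.551 times their control level. PIEZO1 (ENSCAFG00000019870) lies on chromosome 5 of the CanFam3.1 build, from 64584139 to 64640161 on the plus strand. It stood at 343, 351 and 335 CPM in WT control libraries and at 197, 232 and 149 CPM in WT compressed libraries. The controls were close together, and each compressed library was lower than all of them. The log2 fold change was -0.84 ± 0.20 (SE, 95% interval -1.27 to -0.40), and the edgeR quasi-likelihood test gave a p of 0.0428 after Benjamini-Hochberg adjustment over all genes. TRPV4 (ENSCAFG00000010796) lies on chromosome 26, from 17262100 to 17330421 on the plus strand. Its control values were 279, 259 and 241 CPM and its compressed values 142, 167 and 119 CPM. These groups did not overlap either, and the third compressed library was the lowest for both genes. The log2 fold change of TRPV4 was -0.86 ± 0.22 (95% interval -1.33 to -0.40), with an edgeR adjusted p of 0.0435. In RNA from whole cultures, less RNA in each cell and fewer cells with the RNA cannot be told apart. The 2 called members of 9 compare with 6.25% of all 13560 genes tested that passed in this comparison, 3.85% higher and 2.4% lower.

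Both calls stood close to the threshold of 0.05. Neither passed with limma on log2(FPKM + 1), where the adjusted p was 0.0587 for PIEZO1 and 0.0623 for TRPV4. The PIEZO1 call was lost in 7 of 11 fits that each left out 1 library, with edgeR adjusted p-values of 0.109 and 0.118 without WT control 2 and 3, 0.132, 0.0501 and 0.190 without WT compressed 1, 2 and 3, and 0.076 and 0.0765 without KO control 1 and 2. For PIEZO1 the range over all 21 alternatives was 0.00319 to 0.190 and the log2 fold change ran from -0.99 to -0.68. TRPV4 lost its call in the same 7 fits and also without WT control 1 (edgeR adjusted p = 0.0503), its range over the 21 alternatives being 0.00227 to 0.192 for the adjusted p and -0.99 to -0.75 for the log2 fold change. Without both WT control 1 and KO compressed 2 the edgeR adjusted p was 0.00319 for PIEZO1 and 0.00227 for TRPV4. CTU2, a tRNA-modifying enzyme gene, overlaps PIEZO1 on the opposite strand with 135 to 532 counts, against 1473 to 5774 for PIEZO1. The sources used here do not say whether counting used strand, so shared reads cannot be assigned.

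**Figure D2:**
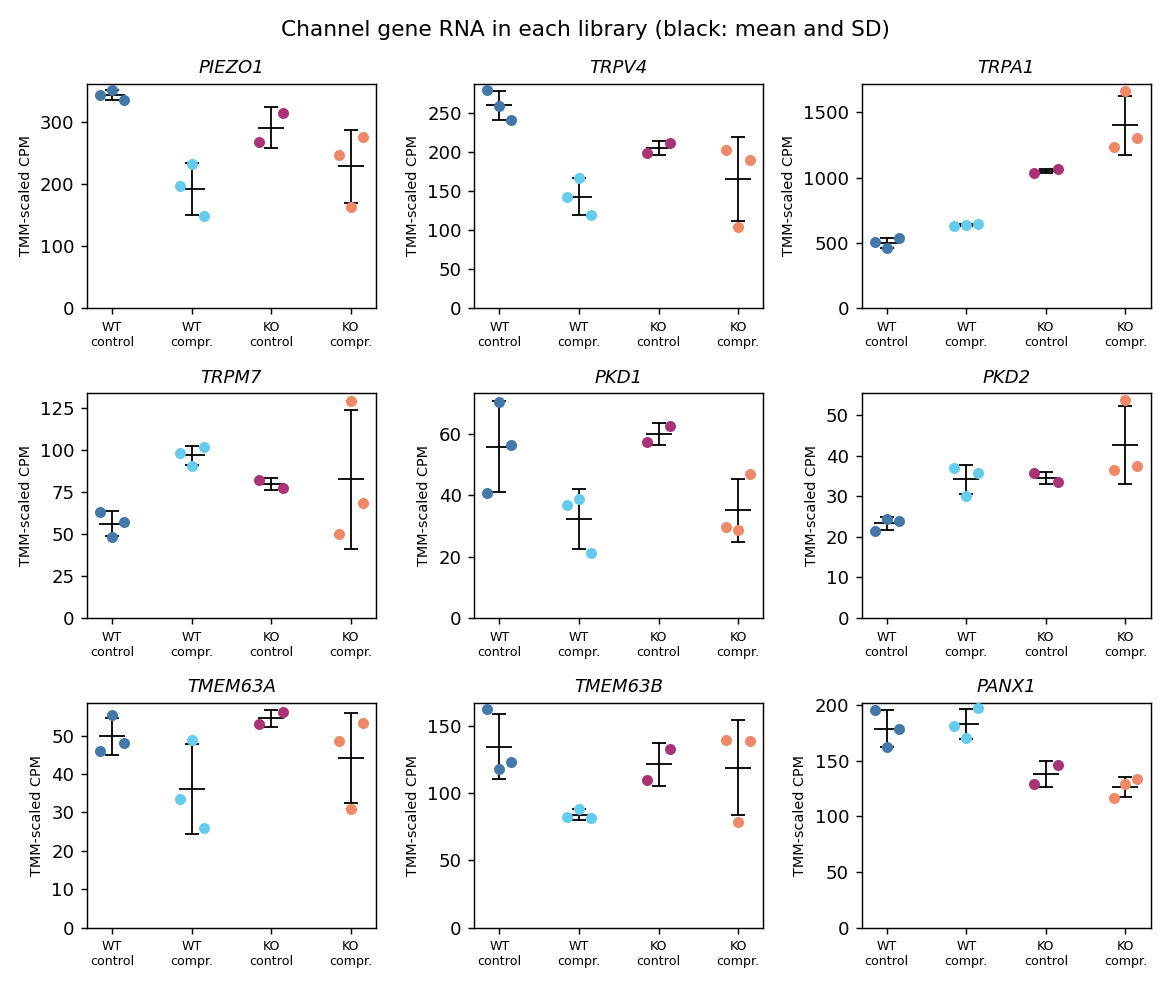
TMM-scaled CPM of each channel gene by group, with a point per library and the mean and SD in black, each axis starting at 0. WT compressed points lie below all WT control points for PIEZO1, TRPV4, PKD1 and TMEM63B and above them for TRPA1, TRPM7 and PKD2, and KO compressed 2, the middle point of the last group, is the lowest of that group for PIEZO1, TRPV4 and TMEM63B and the highest for TRPM7, PKD2 and TRPA1.

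The other 7 channel genes did not pass the edgeR test in WT cells after compression, although 5 of them had groups that did not overlap. DESeq2 called 6 of the 9, adding TRPM7, PKD1, PKD2 and TMEM63B at adjusted p-values of 0.0216 to 0.0363. Over the 21 alternatives the adjusted p-values of these 4 genes ran from 0.00258 to 0.423. In all, 7 of the 9 members had non-overlapping WT groups, 4 lower and 3 higher after compression, where 42.0% of all genes tested did (20.8% lower and 21.2% higher). At an unadjusted p under 0.05 the edgeR test gave the same 7 genes, against 31.8% of all genes tested. The median log2 fold change of the 9 was -0.46, beside a median of -0.02 over all genes tested.

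TRPA1 (ENSCAFG00000007931, chromosome 29, 20951774 to 21000912, minus strand) stood at 506, 462 and 538 CPM in WT control libraries and at 629, 637 and 643 CPM after compression. The compressed values lay within a narrow band above all controls. The log2 fold change was 0.34 ± 0.14, with an edgeR adjusted p of 0.108. TRPM7 (ENSCAFG00000015230, chromosome 30, 16465475 to 16579868, minus strand) had 63.0, 48.4 and 57.0 CPM in controls and 98.3, 90.6 and 102 CPM after compression. All 3 compressed libraries were higher than all controls, and the difference of 0.79 ± 0.27 on the log2 scale had an edgeR adjusted p of 0.0759. The 3 genes of the set with TRP names thus differed in the sign of their WT fold changes, with TRPV4 below 0 and TRPA1 and TRPM7 above it.

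The genes of the polycystin pair had WT fold changes of opposite sign, and neither passed the edgeR test. PKD1 (ENSCAFG00000019424, chromosome 6, 38837964 to 38865503, plus strand) stood at 40.7, 70.4 and 56.6 CPM in WT control libraries and at 36.9, 38.8 and 21.1 CPM after compression. The lowest control and the highest compressed library lay close together. PKD2 (ENSCAFG00000009595, chromosome 32, 11383377 to 11437668, plus strand) had 21.5, 24.4 and 23.9 CPM in controls and 36.8, 30.1 and 35.6 CPM after compression, with every compressed library higher. The log2 fold changes were -0.79 ± 0.27 for PKD1 and 0.55 ± 0.19 for PKD2, with edgeR adjusted p-values of 0.0777 and 0.0782. From 500 kb below to 500 kb above its midpoint, PKD1 has 55 protein-coding genes in total with itself counted, the most among the 9. TRPA1 has 3 in its window, the fewest. With each library corrected for gene density the PKD1 difference was -0.26 (edgeR adjusted p = 0.423, range over 21 alternatives 0.0103 to 0.423), and that of TRPA1 was 0.17 (0.388, range 0.0326 to 0.388). Under the same correction PIEZO1 and TRPV4 stayed past the threshold at -0.73 and -0.86.

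TMEM63B (ENSCAFG00000001941, chromosome 12, 12550915 to 12575984, plus strand) had 162, 118 and 123 CPM in WT controls and 82.4, 88.3 and 81.3 CPM after compression. The compressed libraries lay together below the lowest control, and the log2 fold change was -0.68 ± 0.21 with an edgeR adjusted p of 0.0624. TMEM63A (ENSCAFG00000016154, chromosome 7, 38936590 to 38966443, plus strand) had 46.0, 55.2 and 48.1 CPM in controls and 33.5, 48.9 and 26.04 CPM after compression. Its groups overlapped through WT compressed 2, and the difference was -0.46 ± 0.24 (edgeR adjusted p = 0.203). PANX1 (ENSCAFG00000004176, chromosome 21, 6665729 to 6715434, minus strand) had 195, 162 and 178 CPM in controls and 182, 171 and 198 CPM after compression. These ranges lay on top of each other, with a log2 fold change of 0.04 and a 95% interval of -0.26 to 0.33.

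How many of the genes passed was also counted without WT control 1, without KO compressed 2 and without both. Without both libraries, an alternative chosen after the data were seen, 7 of the 9 channel genes passed in WT cells after compression, where 4579 of all genes did. These 7 were PIEZO1, TRPV4, TMEM63B and PKD1 lower and TRPA1, TRPM7 and PKD2 higher. Without KO compressed 2 alone, the count was again 7 (3066 of all genes), although that library belongs to neither group of this comparison. When only WT control 1 was left out, 2 channel genes passed (1379 of all genes), the same count as with all 11 libraries. The pair was not the same, since TRPV4 missed the threshold in that fit while PIEZO1 passed.

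None of the 9 channel genes passed in KO cells after compression, where 0.0% of all genes tested did by edgeR, and DESeq2 called none of the 9 either. At an unadjusted p under 0.05 there were 2 of the 9 by edgeR, PKD1 lower and TRPA1 higher, against 6.11% of all genes tested. PIEZO1 had 267 and 314 CPM in KO control libraries and 247, 162 and 275 CPM after compression, and TRPV4 had 199 and 211 CPM against 203, 104 and 189 CPM. Both genes had overlapping groups, with KO compressed 2 far below the other libraries. The log2 fold changes were -0.35 ± 0.22 (95% interval -0.83 to 0.13) for PIEZO1 and -0.31 ± 0.24 (-0.82 to 0.20) for TRPV4. Without WT control 1 and KO compressed 2 they were -0.16 and -0.07.

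TRPA1, PKD2 and PKD1 had KO groups that did not overlap, 3 of 9 members where 27.6% of all genes did. TRPA1 stood at 1038 and 1063 CPM in KO control libraries and at 1234, 1660 and 1306 CPM after compression, a log2 fold change of 0.41 ± 0.15 (edgeR adjusted p = 0.773). PKD1 had 57.5 and 62.7 CPM in controls and 29.6, 28.9 and 47.1 CPM after compression, with a fold change of -0.77 ± 0.30 on the log2 scale (edgeR adjusted p = 0.773). PKD2 had 35.6 and 33.5 CPM against 36.4, 53.7 and 37.5 CPM, where the first compressed library lay just above the controls. TRPM7 had 82.3 and 77.3 CPM in controls and 50.03, 129 and 68.4 CPM after compression, so its compressed libraries lay on both sides of the controls. TMEM63B had 110 and 133 CPM in controls against 140, 78.3 and 139 CPM. TMEM63A had 53.0 and 56.1 CPM in KO controls against 48.5, 31.0 and 53.2 CPM. PANX1 had 130 and 146 CPM against 116, 129 and 134 CPM, and all 3 of these genes had overlapping groups.

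The difference between the genotypes in the response to compression was tested directly as an interaction, and 0 of the 9 genes passed, as did 0.0% of all genes tested. By edgeR 0 of the 9 had an unadjusted p under 0.05 (4.79% of all genes tested), and DESeq2 called 0 of the 9. The KO response minus the WT response was 0.49 ± 0.30 for PIEZO1 (95% interval -0.16 to 1.13), 0.55 ± 0.32 for TRPV4 (-0.15 to 1.25), 0.65 ± 0.32 for TMEM63B (-0.03 to 1.34) and -0.74 ± 0.40 for TRPM7 (-1.59 to 0.11) on the log2 scale. These intervals include 0 and also differences as large as the WT response itself. The passing of PIEZO1 and TRPV4 in WT but not in KO cells is thus no shown difference between genotypes. TRPM7 alone of the 9 passed this test without WT control 1 and KO compressed 2, at -1.31 with an edgeR adjusted p of 0.0214 (range over its alternatives 0.0214 to 1.0).

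**Figure D3:**
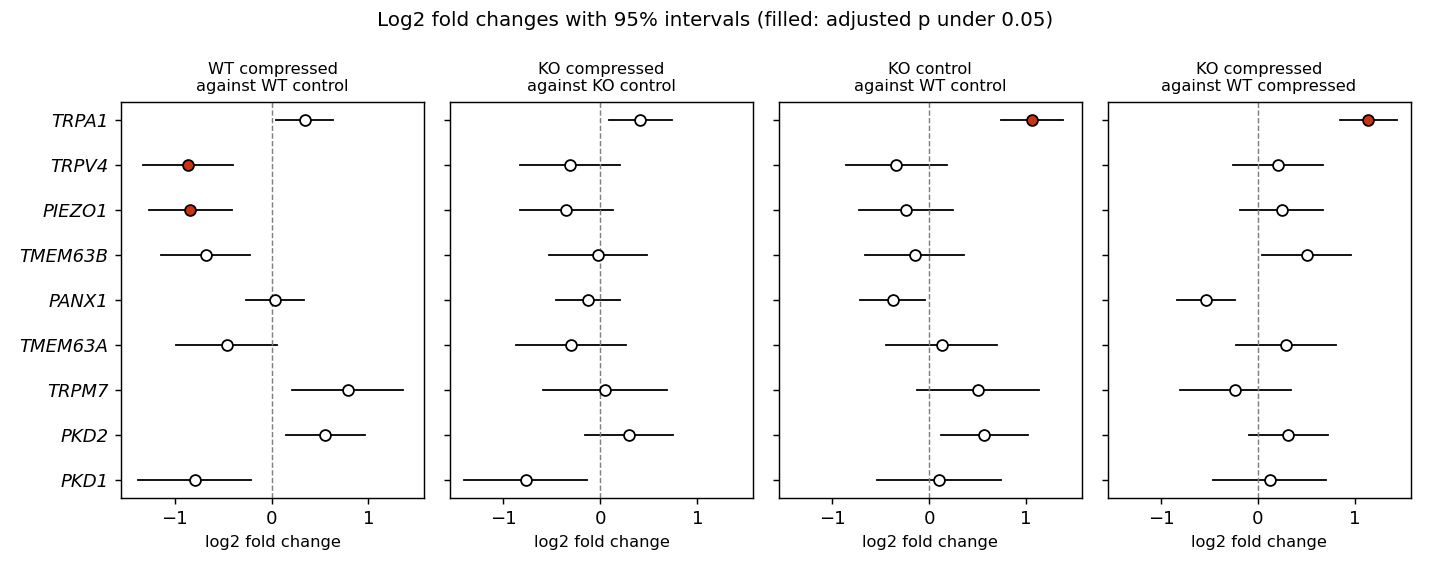
Log2 fold changes with 95% intervals of the 9 channel genes in 4 comparisons, with filled points where the edgeR adjusted p was under 0.05. Filled points are PIEZO1 and TRPV4 in WT cells after compression, and TRPA1 in KO against WT cells in both conditions (1.07 and 1.14).

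TRPA1 was higher in KO than in WT cells, by about 2-fold in both conditions. The KO control values of 1038 and 1063 CPM compare with 462 to 538 CPM in WT controls. After compression the KO values of 1234 to 1660 CPM compare with 629 to 643 CPM in WT cells. No KO library came near any WT library of the same condition. The log2 fold change was 1.07 ± 0.15 without compression (2.09-fold, 95% interval 0.74 to 1.39, edgeR adjusted p = 0.0065) and 1.14 ± 0.14 after it (2.20-fold, 0.84 to 1.43, edgeR adjusted p = 0.00162). In these comparisons 1 of 9 members passed, where 0.339% and 0.789% of all genes tested passed, 0.133% and 0.509% in the higher direction. The call after compression held in all 21 alternatives, with log2 fold changes from 1.00 to 1.22 and a highest adjusted p of 0.0162. The call without compression was lost when KO control 1 or KO control 2 was left out (edgeR adjusted p = 0.115 and 0.136), each of which leaves 1 KO control library that is assumed to vary like the other groups. The fold change in those fits was 1.08 and 1.05. The call held in 9 of 10 other settings, and the adjusted p ran from 8.39e-08 to 0.136 over the 21 alternatives. The KO minus WT difference in the response to compression was 0.07 ± 0.20 for TRPA1 (95% interval -0.36 to 0.51). The nearest tested genes with a symbol lie 149.1 kb (MSC) and 601.8 kb (KCNB2) away from TRPA1, at mean levels of 0.215 and 0.383 FPKM.

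The other 8 channel genes did not pass between genotypes by edgeR, while DESeq2 also called PANX1 after compression (adjusted p = 0.00913). Without compression 6 of 9 members had groups that did not overlap, where 31.9% of all genes tested did, and 3 had an unadjusted edgeR p under 0.05 (7.79% of all genes). PKD2 had 35.6 and 33.5 CPM in KO controls against 21.5 to 24.4 CPM in WT controls, a log2 fold change of 0.57 ± 0.21 (edgeR adjusted p = 0.524). PANX1 had 130 and 146 CPM in KO controls against 162 to 195 CPM in WT controls, with -0.37 ± 0.16 (edgeR adjusted p = 0.584). After compression TRPA1 and PANX1 were the 2 members of 9 with separate groups, where 15.7% of all genes had them. PANX1 then had 116 to 134 CPM in KO libraries against 171 to 198 CPM in WT libraries. Each of the 5 KO libraries was thus below each of the 6 WT libraries for PANX1. The difference after compression was -0.53 ± 0.14 on the log2 scale (95% interval -0.83 to -0.24) and missed the threshold with an edgeR adjusted p of 0.110. PIEZO1 differed between genotypes by -0.24 ± 0.22 without compression and 0.25 ± 0.20 after it, and TRPV4 by -0.34 ± 0.24 and 0.21 ± 0.22. Without WT control 1 and KO compressed 2 the difference after compression was 0.44 for PIEZO1 and 0.46 for TRPV4, and neither passed.

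Without WT control 1 and KO compressed 2, 4 of the 9 genes passed between genotypes after compression, where 1105 of all genes did. TRPA1 was higher in KO cells by 1.00 and TMEM63B by 0.73 on the log2 scale, while TRPM7 at -0.71 and PANX1 at -0.55 were lower. Their edgeR adjusted p-values were 0.000221, 0.0046, 0.0189 and 0.0247. Over the 21 alternatives the adjusted p ran from 0.0046 to 0.716 for TMEM63B, 0.0189 to 0.983 for TRPM7 and 0.00913 to 0.373 for PANX1.

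Ratios of FPKM values within a library show how members stand to each other, and the scaling of whole libraries drops out of them. The gene density slopes do not, since PKD1 has 55 and PKD2 10 protein-coding genes in the window around them, each with itself counted. The ratio of PKD1 to PKD2 was 0.675, 1.03 and 0.847 in WT control libraries and 0.358, 0.461 and 0.211 in WT compressed libraries. In KO cells it was 0.577 and 0.668 in controls and 0.290, 0.192 and 0.448 after compression. Every compressed library of either genotype had a lower ratio than every control library. On the log2 scale the mean ratio differed by -1.36 in WT cells and -1.09 in KO cells. With the gene density correction the WT fold changes were -0.26 for PKD1 and 0.41 for PKD2, against -0.79 and 0.55 without it. The ratio of TRPA1 to TRPV4 was 2.04, 2.00 and 2.51 in WT controls, 4.97, 4.28 and 6.06 in WT compressed, 5.86 and 5.65 in KO control and 6.83, 17.9 and 7.75 in KO compressed libraries. WT controls were lowest and KO compressed libraries highest, with KO compressed 2 far above the rest. Two-sided exact permutation tests of these 2 ratios in 4 comparisons gave p = 0.1 for 3 against 3 libraries wherever the groups did not overlap and 0.2 for 2 against 3, the smallest values these designs allow, with 0.229 after adjustment over the 8 tests. PKD1 to PKD2 between genotypes after compression was the exception, with an exact permutation p = 0.7. The ratio of PIEZO1 to TRPV4 stayed between 0.633 and 0.811 in all 11 libraries.

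**Figure D4:**
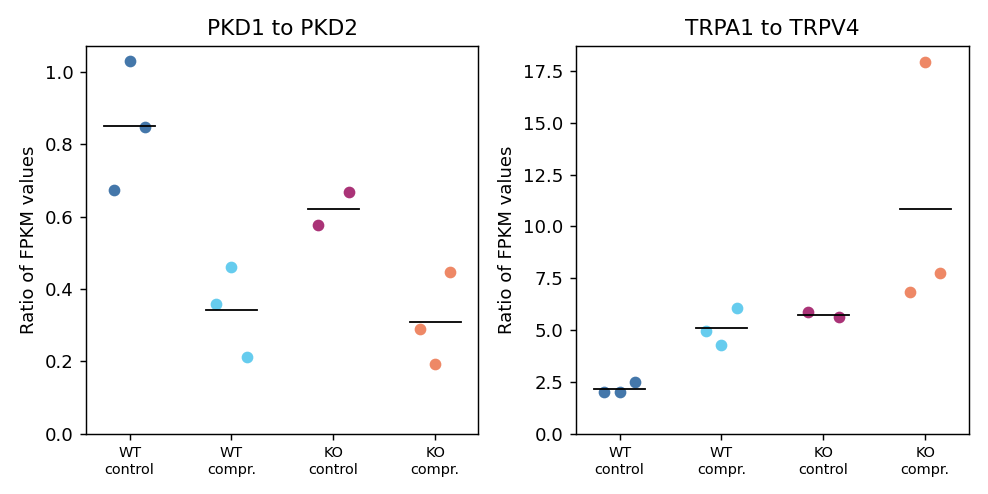
Ratios of FPKM values of PKD1 to PKD2 (left) and TRPA1 to TRPV4 (right) in each library by group, with black bars at the group means and axes from 0. The PKD1 to PKD2 ratio lies at 0.577 or higher in the 5 control libraries and at 0.461 or lower in the 6 compressed libraries.

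The members fell into sets that resembled each other over the 11 libraries, given here as a description, since libraries share conditions and gene-density slopes. Likeness was measured as the root mean square difference of log2(CPM + 0.5) after each gene was centred on its own mean. PIEZO1 and TRPV4 were the most alike of the 36 pairs, at 0.108, followed by PIEZO1 and TMEM63A at 0.196, and TRPV4 and TMEM63B at 0.219. TRPM7 resembled PKD2 most (0.318), and so did TRPA1 (0.365). TRPV4 and TRPA1 were the least alike pair at 0.883. KO compressed 2 held the extreme of the 11 libraries for TRPV4 (-0.82 from the gene's mean), TRPA1 (1.04), TRPM7 (0.77) and PKD2 (0.71), and WT compressed 3 held the lowest value for PIEZO1, TMEM63A and PKD1.

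**Figure D5:**
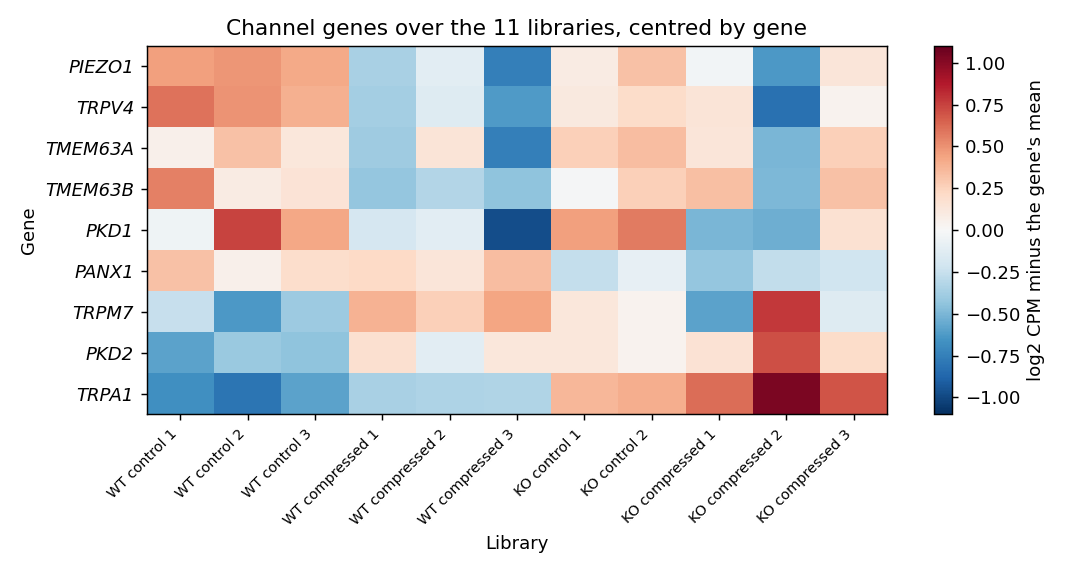
Log2 CPM of the 9 channel genes in the 11 libraries minus each gene's mean, with red above and blue below the mean. PIEZO1, TRPV4, TMEM63A and TMEM63B are blue in WT compressed 3 and KO compressed 2, where TRPM7 and PKD2 are red, and TRPA1 is blue in all 6 WT and red in all 5 KO libraries.

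Named genes averaging 1 FPKM or more with at least 0.5 times the SD of the gene in question were then ranked by this measure. Among 8499 such genes, those most like PIEZO1 were BRF1 (0.084), FURIN (0.0844), INPPL1 (0.0929), PPP1R12C (0.0947) and FOXP4 (0.0951), where the median gene stood at 0.535. TRPV4 ranked 11 in that order. Those most like TRPV4 among 8156 genes were PPP1R12C (0.0779), CDR2L (0.0785), INCENP (0.0857), CAMTA2 (0.102, named by protein match) and TROAP (0.103), with a median gene at 0.560. PIEZO1 ranked 7 there. PPP1R12C, which encodes a subunit of myosin phosphatase, stood in both sets of 5.

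Of 81 tested genes in 8 lists of related channels, partners and calcium signalling, 4 passed in WT cells after compression, where 24 had an unadjusted edgeR p under 0.05. Over all genes tested these shares were 6.25% and 31.8%, so the lists stood near or below the background. In KO cells after compression and between genotypes without and with compression 0 passed by edgeR, with 5, 7 and 11 at an unadjusted p under 0.05 (6.11%, 7.79% and 11.3% of all genes tested). In the interaction 0 passed by edgeR, with 4 at an unadjusted p under 0.05 (4.79% of all genes). PACSIN3, a membrane-bending protein that binds TRPV4, fell from 37.2, 39.8 and 36.3 CPM in WT controls to 12.9, 19.1 and 14.5 CPM after compression. All compressed libraries lay far below the controls, at a log2 fold change of -1.28 ± 0.32 (edgeR adjusted p = 0.0435). It was 1 of 9 tested channel partners to pass. PACSIN3 also passed between genotypes after compression in 2 of 21 alternatives, with log2 fold changes from 0.27 to 0.87 over all 21. In the interaction it passed in 1 of 20 alternatives, with values from 0.66 to 1.28. LRRC8A, the obligatory subunit of the volume-regulated anion channel that opens when cells swell, fell from 98.2, 93.4 and 93.1 CPM to 72.4, 66.2 and 54.4 CPM. The other 4 subunits of that channel did not pass, and the LRRC8A fold change was -0.56 ± 0.15 (edgeR adjusted p = 0.047).

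Among 14 tested genes of calcium entry and stores, ITPR3 fell. ITPR3, an inositol trisphosphate receptor that releases stored calcium, had 372, 328 and 339 CPM in controls and 216, 262 and 182 CPM after compression, with -0.65 ± 0.18 (edgeR adjusted p = 0.0489). Like the calls of PIEZO1 and TRPV4 in WT cells, those of PACSIN3, LRRC8A and ITPR3 were lost in most fits that left out 1 library. The sign of all 3 fold changes held in 11 of 11 such fits. PACSIN3 passed in 4 of 11 fits that left out 1 library, and ITPR3 and LRRC8A in 3 of 11. The median log2 fold changes in WT cells were -0.29 for the channel partners, 0.13 for the anion channel subunits and -0.03 for calcium entry and stores, beside -0.02 over all genes tested. With the gene density correction the fold change of LRRC8A was -0.28 and that of ITPR3 -0.32. In the 10 alternatives other than leaving out 1 library, this correction among them, LRRC8A passed in 7 and ITPR3 in 6. The highest adjusted p-values there were 0.222 and 0.18.

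The remaining 5 lists had no called gene in any comparison by edgeR. MCOLN1 had a WT compression log2 fold change of -0.82 ± 0.30 and TRPC1 of 0.46 ± 0.27. TMEM120A stood at -0.58 ± 0.23 and SCNN1A at -0.27 ± 0.21. Of 13 tested polycystin partners and other cyst-related genes, 5 had an unadjusted edgeR p under 0.05 in WT cells after compression, beside 31.8% of all genes tested. The most abundant there were DNAJB11, an endoplasmic reticulum chaperone cofactor, at 0.15 ± 0.15, and SEC61B, a subunit of the translocon, at 0.38 ± 0.18. Among 15 pannexin, connexin and purinergic genes, the ATP-degrading enzyme ENTPD3 stood at 0.07 ± 0.15. Among 9 calcineurin and NFAT genes, the catalytic subunit PPP3CA stood at 0.27 ± 0.20 and the calcineurin regulator RCAN1 at -1.004 ± 0.38. RCAN1 had 617, 158 and 229 CPM in WT control 1 to 3 and 170, 171 and 159 CPM after compression, so the groups overlapped, and without WT control 1 its log2 fold change was -0.22. The edgeR adjusted p-values of these 9 genes ran from 0.0925 to 0.773. Over the 21 alternatives of this WT comparison MCOLN1 passed in 3, TMEM120A and RCAN1 in 2 each and PPP3CA in 1. TRPC1, SCNN1A, DNAJB11, SEC61B and ENTPD3 passed in 0. The median log2 fold changes of these 5 lists, taken in the order of this paragraph, were 0.36, -0.36, 0.15, -0.45 and 0.07, beside -0.02 over all genes tested.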

How the data were processed

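Poly(A) RNA from 11 samples of a cell line was sequenced. Per the submitters' processing notes, CASAVA, FastQC and HISAT2 version 2.0.5 were used with the CanFam3.1 build; the sources used here name no gene counter, annotation or strand setting. What the authors deposited are raw counts (26178 rows, 0 without a gene) and FPKM, which are those counts divided by the deposited gene length and by an effective library size of 0.964 to 1.049 times the total. FPKM served for levels between genes and ratios. Groups and replicate numbers came from sample titles; the series' design text describes other conditions.

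Counts were tested with edgeR 4.0.16 in R 4.3.3 (filterByExpr, TMM, one quasi-likelihood fit of 4 groups, 7 residual degrees of freedom, 13560 genes, two-sided, Benjamini-Hochberg, threshold 0.05). SEs and intervals came from the F statistic. Exact permutation tests used Python 3.11.15. Scripts were checked on simulated data. Replicates differed beyond sampling noise (lowest chi-square per gene 6.1).

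The members and lists were chosen with earlier results of these data known. Named genes are all members, each list gene called in any comparison, for lists without one the 2 with the highest mean FPKM, the 5 most like PIEZO1 and TRPV4, and LMNA; neighbouring and overlapping genes, and genes at or near 0 counts, were named after their values were seen. Of 133 listed genes, 125 beside the members are in the table. Some genes that this rule takes are not reported here.

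Alternatives were no filter and a stricter filter, scaling by RLE or by library size alone, DESeq2 1.42.0, limma 3.58.1 on log2(FPKM + 1), the groups compared alone, a replicate block and leaving out each library. Added after the data were seen were a gene density correction (protein-coding genes within 500 kb on each side) and a fit without 2 libraries.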

Additional observations from a re-analysis of the deposited data

How the results depend on the processing

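Counts of genes called depended strongly on the processing, while the direction of PIEZO1, TRPV4 and TRPA1 in the comparisons where they passed was the same in all 21 alternatives. In WT cells after compression 848 genes and 2 channel genes passed. DESeq2 called 2558 and 6, edgeR without a filter 1754 and 5, and the groups compared alone 2069 and 5. The gene density correction gave 515 genes, and leaving out both WT control 1 and KO compressed 2 gave 4579 and 7. Limma on log2(FPKM + 1) called 0 genes and 0 channel genes (4160 and 7 at an unadjusted p under 0.05). Leaving out 1 library gave 0 to 3066 genes and 0 to 7 channel genes. The fits without WT control 2 or 3, any WT compressed library or either KO control library called 0 or 1 gene, with 2457 to 4245 at an unadjusted p under 0.05. For KO compression (0 genes called by edgeR, 828 at an unadjusted p under 0.05) DESeq2, limma and the fit without those 2 libraries each called 1 gene. Between genotypes without compression (46 genes, 1 channel gene) DESeq2 called 127, no filter 90, limma 16, and the fit without the 2 libraries 390, with 6 to 106 genes and 0 to 1 channel gene when 1 library was left out. Between genotypes after compression (107 and 1) DESeq2 called 371 and 2, no filter 201, limma 59, the groups alone 64, and the fit without the 2 libraries 1105 and 4, with 39 to 349 and 1 to 2 when 1 library was left out. For the interaction (0 genes by edgeR, 650 at an unadjusted p under 0.05; 0 by DESeq2) the fit without the 2 libraries called 370 and 1, and leaving out 1 library 0 to 1. The cause of these shifts was not tested.

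Same-numbered replicates did not deviate together (correlations of deviations from -0.403 to 0.246 over 15 pairs, against -0.299 to 0.426 over 30 other pairs), so the numbers are not taken to pair samples. With a replicate block edgeR called 0 genes and 0 channel genes in WT cells after compression (3439 and 7 at an unadjusted p under 0.05), 15 and 0 between genotypes without compression, and 53 and 1 after it. Under the block the adjusted p was 0.111 for PIEZO1 and TRPV4 in WT cells after compression and 0.0564 for TRPA1 between uncompressed genotypes. Groups of 2 or 3 libraries limit what can be seen: the widest 95% interval of a channel gene in the 4 pairwise comparisons, that of PKD1 between control cells of the genotypes, ran from -0.54 to 0.74 on the log2 scale.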

Other observations

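Among tested genes with a symbol, the one nearest to PKD2 was SPP1, which encodes the secreted phosphoprotein osteopontin and stood at a mean of 9490 FPKM. The gap between the genes is 20.99 kb. SPP1 rose in WT cells after compression by 0.84 ± 0.21 on the log2 scale (edgeR adjusted p = 0.0428), beside 0.55 ± 0.19 for PKD2. Farther from PKD2, HERC6 rose by 0.81 ± 0.19 (edgeR adjusted p = 0.0414), while NUDT9 and PPM1K stood at -0.44 ± 0.14 and -0.36 ± 0.22 without passing. SPPL2A, an intramembrane protease gene 13.35 kb from TRPM7, rose by 0.85 ± 0.23 (edgeR adjusted p = 0.0471), beside 0.79 ± 0.27 for TRPM7. Near PIEZO1, the overlapping gene CTU2 stood at -0.67 ± 0.26, the replication licensing gene CDT1 at -0.70 ± 0.30 and RNF166 at -0.47 ± 0.22, all without passing (edgeR adjusted p = 0.105 to 0.165). Near TRPV4, FAM222A, 10.43 kb away at a mean of 1.24 FPKM, stood at -1.31 ± 0.76 without passing (edgeR adjusted p = 0.244). TCHP stood at -0.33 ± 0.29, GIT2 at -0.06 ± 0.18 and MVK at -0.295 ± 0.19, beside -0.86 for TRPV4. MRE11A, 137.4 kb from PANX1, rose by 0.74 ± 0.19 (edgeR adjusted p = 0.0448), beside 0.04 for PANX1. TSC2, which encodes tuberin and lies 0.072 kb from PKD1, stood at -0.45 ± 0.17 (edgeR adjusted p = 0.100), beside -0.79 for PKD1. LACTB2, 1202 kb from TRPA1, rose by 0.98 ± 0.22 (edgeR adjusted p = 0.041), beside 0.34 for TRPA1. The neighbours looked at around TMEM63A and TMEM63B did not pass. Over all genes tested 6.25% passed in this comparison, and whether neighbours change together was not tested. These neighbours were looked at after the members' values were known and were not recomputed under the alternatives.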
